A study of Mus musculus with 8 samples.

Results

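Sciatic nerve axotomy in mice with floxed non-muscle myosin II genes and Cre in sensory neurons was described here as the difference between the dKO SNI and dKO sham ganglia. The genes described were those with at least 1 FPKM (fragments per kilobase of transcript, scaled to the mapped fragments of each library) in 2 or more of the 8 libraries, 12884 of the 21878 symbols measured. RNA sequencing was done on ganglia of the L4 and L5 roots from C57BL/6 animals, collected 3 days after surgery, with 2 libraries in each of 4 groups. All 4 groups carried floxed Myh9 and Myh10, which encode heavy chains of the IIA and IIB forms of non-muscle myosin. The dKO mice also carried Advillin-Cre, which is active in sensory neurons, whereas the WT mice carried the floxed alleles without Cre. Sham groups had surgery without the nerve cut, and SNI is the label used for the axotomy. By this design glia, vessels, fibroblasts and blood cells of a dKO ganglion should keep both myosin genes, but where Cre acted was not tested. Age and sex are not in the labels, and whether libraries of a group stem from different animals is not stated, so the p-values reflect only how much these libraries vary, which may be technical.

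A dorsal root ganglion holds the cell bodies of sensory neurons, each wrapped in satellite glia, together with Schwann cells, fibroblasts, vessels and macrophages. Cutting the sciatic nerve severs the peripheral axons of these neurons. Axotomized sensory neurons are known to switch on injury transcription factors, growth genes and a new set of neuropeptides, to turn down ion channels and transmitter genes, and to attract macrophages to the ganglion.

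Total FPKM per library was 278310 to 339920, read totals are not known, and the log2 values of the 2 libraries of a group correlated at a Pearson r of 0.984 to 0.989 across genes. Myh9 measured 10.9 and 12.1 FPKM after sham surgery and 24.6 and 24.4 FPKM after axotomy, a log2 change of 1.03 ± 0.13 (standard error, adjusted p = 2.95e-04). Myh10 measured 12.2 and 14.4 FPKM after sham surgery and 5.31 and 4.12 FPKM after axotomy (-1.33 ± 0.18, adjusted p = 5.26e-04), and Avil, which encodes advillin, measured 75.3 and 80.0 FPKM after sham surgery and 44.1 and 34.5 FPKM after axotomy (-0.97 ± 0.17, adjusted p = 0.00167). Myh9 was thus higher and Myh10 and Avil lower in both dKO SNI libraries than in both dKO sham libraries. Here and below, paired values are of libraries 1 and 2 of dKO sham and of dKO SNI unless WT is named. These are whole-gene values that do not isolate the floxed exons. Transcripts of the Y chromosome (Ddx3y, Eif2s3y, Kdm5d and Uty) measured 2.81 to 17.8 FPKM in dKO SNI and 0 to 0.0109 FPKM in dKO sham, and the order was the opposite in WT, with 2.10 to 9.98 FPKM in WT sham and 0 to 0.00745 FPKM in WT SNI. Sex of the animals and surgery therefore cannot be told apart within either genotype, and the sex contrast has opposite signs in the 2 genotypes. Skeletal muscle markers took 0.283% of FPKM in WT sham 2 and at most 0.0307% in each other library.

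After axotomy, 6236 genes of dKO ganglia passed a limma adjusted p of 0.05, 48.4% of the genes tested, and such genes are named called in what follows. Of these, 3069 (23.8%) rose and 3167 (24.6%) fell, and 6648 did not pass. Changes are given on the log2(FPKM + 1) scale, and a size of 1 or more was reached by 1025 called genes upwards (7.96%) and 842 downwards (6.54%). The upper tail was longer than the lower one: 181 genes rose and 66 fell by at least 2, and 29 rose and 1 fell by at least 3. Among genes with a mean of 100 FPKM or more, 194 of 525 rose and 129 fell, whereas among genes of 20 to 100 FPKM 420 of 2233 rose and 787 fell. The 2 dKO SNI libraries lay wholly above the 2 dKO sham libraries for 4851 genes (37.7%) and wholly below for 4871 (37.8%). Without dKO SNI 2 the count of called genes was 3887, with 1962 rises and 1925 falls. With each library rescaled to the same total FPKM, the median change over all genes moved from -0.001 to -0.154 and the share of rises among called genes from 49.2% to 35.2%, with 2277 rises and 4199 falls.

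The largest rises were of genes known from injured sensory neurons. The neuropeptide precursor Nts (neurotensin) measured 9.45 and 12.6 FPKM after sham surgery and 179 and 283 FPKM after axotomy, a change of 4.25 ± 0.23 (adjusted p = 1.79e-05). Gpr151, an orphan receptor of sensory neurons, measured 3.74 and 1.85 FPKM after sham surgery and 68 and 62.4 FPKM after axotomy (4.17 ± 0.31, adjusted p = 4.54e-05). Sprr1a, a small proline-rich protein of growing axons, measured 51.2 and 20.7 FPKM after sham surgery and 689 and 461 FPKM after axotomy (4.07 ± 0.66, adjusted p = 0.00116), and its sham libraries differed more from each other than those of Nts. The stress-induced transcription factor Atf3 measured 10.0 and 9.07 FPKM after sham surgery and 163 and 148 FPKM after axotomy (3.89 ± 0.30, adjusted p = 5.12e-05). For each of these 4 genes the lowest axotomy library was far above the highest sham library. Wfdc3, a gene of the whey acidic protein family, rose by 3.97 ± 0.21, and the peptide precursors Gal (galanin, 3.72 ± 0.39), Npy (neuropeptide Y, 3.52 ± 0.38) and Ucn (urocortin, 3.35 ± 0.49) rose too. The lipase gene Lipn was nearly silent after sham surgery, with 0.0897 and 0.0329 FPKM after sham surgery and 9.54 and 12.4 FPKM after axotomy (3.49 ± 0.15, adjusted p = 5.52e-06). The other genes among the 15 largest rises, sex-linked and predicted genes left out, are known mainly from blood and immune cells: the chemokine Ccl8 (3.44 ± 0.39), the leukotriene C4 synthase Ltc4s (3.29 ± 0.26), the stefin Stfa2 (3.25 ± 0.29), the calgranulin S100a8 (3.25 ± 0.35), neutrophil elastase Elane (3.24 ± 0.24) and the coagulation factor F13a1 (3.19 ± 0.23). By the design of the selection, the libraries of the 2 groups do not overlap for any of these 15 genes.

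**Figure D1:**
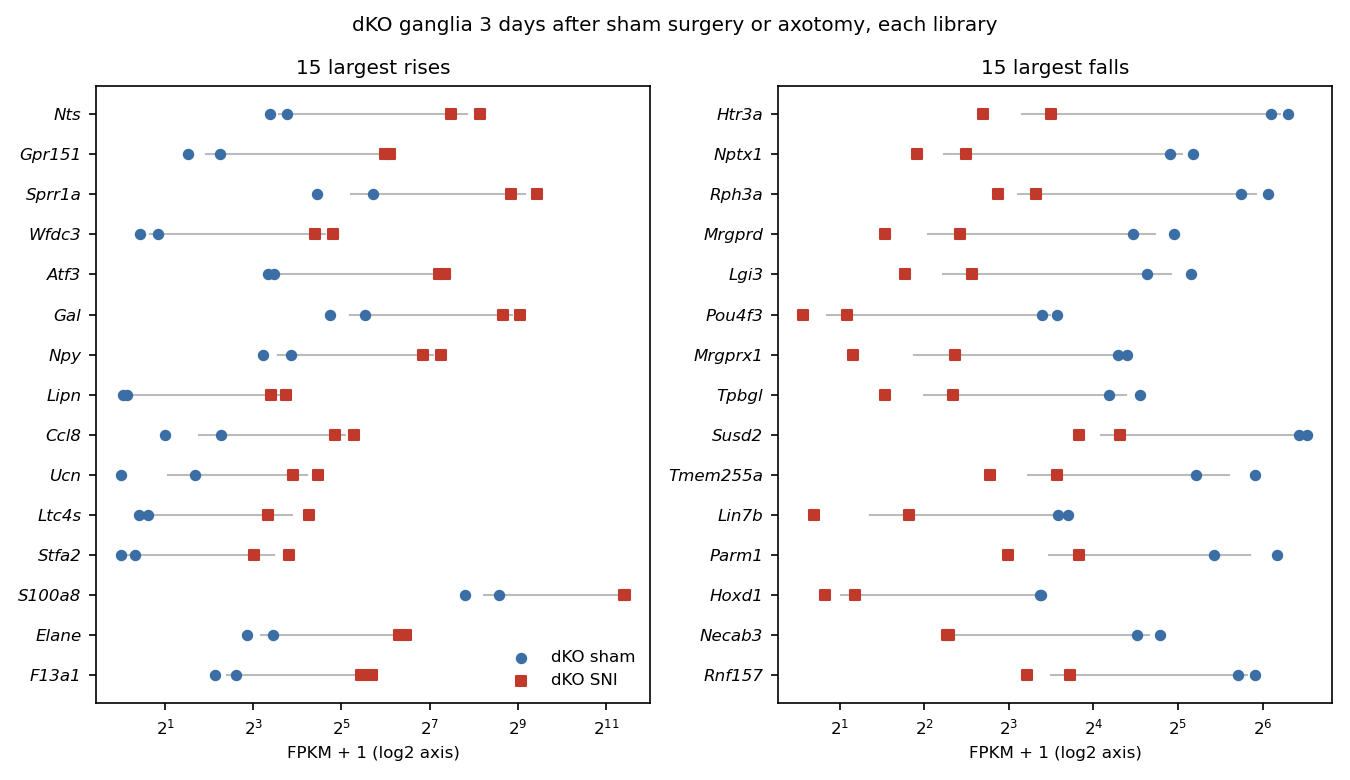
FPKM plus 1, on a log2 axis, of the 15 genes with the largest rises (left) and the 15 with the largest falls (right) in dKO ganglia. Circles are the 2 dKO sham libraries, squares the 2 dKO SNI libraries, and grey lines join the group means. Nts goes from 9.45 and 12.6 to 179 and 283 FPKM, while Htr3a goes from 77.8 and 67.4 to 10.3 and 5.48 FPKM.

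The promoter windows of the genes at the 2 ends of the range, 250 bases before to 50 bases after the start, are shown because Atf3, which rose here, belongs to a factor family known to bind the AP-1 motif and its relative, the CRE motif. They were taken from RefSeq (build GRCm38.p6) for 10 genes, the 6 largest rises and 4 largest falls among the named genes whose windows were used here. The windows of Gpr151, Htr3a, Nptx1, Lgi3 and Pou4f3, which ranked among them by size, were not used here. Both strands were searched for the AP-1 motif TGANTCA and the CRE motif TGACGTCA. The 4 printed windows lie at chr10:102490369-102490668 (minus strand, Nts), chr3:92485832-92486131 (minus strand, Sprr1a), chr1:191183284-191183583 (minus strand, Atf3) and chr5:121010043-121010342 (minus strand, Rph3a, the third largest fall), each read 5′ to 3′ along its gene, with matches in capitals.
Nts: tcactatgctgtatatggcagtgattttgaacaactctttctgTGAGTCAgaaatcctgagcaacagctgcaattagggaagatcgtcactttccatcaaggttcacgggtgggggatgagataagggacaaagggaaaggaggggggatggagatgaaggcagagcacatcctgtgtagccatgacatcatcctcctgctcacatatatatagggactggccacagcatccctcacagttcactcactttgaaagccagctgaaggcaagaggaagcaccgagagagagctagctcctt
Sprr1a: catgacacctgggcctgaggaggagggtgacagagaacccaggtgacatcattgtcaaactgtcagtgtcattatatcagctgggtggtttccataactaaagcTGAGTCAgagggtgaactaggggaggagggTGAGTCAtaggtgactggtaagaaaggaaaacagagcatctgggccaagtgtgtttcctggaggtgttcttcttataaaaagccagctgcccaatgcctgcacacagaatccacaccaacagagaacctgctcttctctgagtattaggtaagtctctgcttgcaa
Atf3: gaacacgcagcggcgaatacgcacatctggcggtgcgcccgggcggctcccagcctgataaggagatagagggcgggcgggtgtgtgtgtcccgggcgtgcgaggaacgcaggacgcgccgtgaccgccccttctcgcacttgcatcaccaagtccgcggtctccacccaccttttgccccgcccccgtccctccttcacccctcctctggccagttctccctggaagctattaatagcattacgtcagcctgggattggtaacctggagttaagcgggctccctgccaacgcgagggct
Rph3a: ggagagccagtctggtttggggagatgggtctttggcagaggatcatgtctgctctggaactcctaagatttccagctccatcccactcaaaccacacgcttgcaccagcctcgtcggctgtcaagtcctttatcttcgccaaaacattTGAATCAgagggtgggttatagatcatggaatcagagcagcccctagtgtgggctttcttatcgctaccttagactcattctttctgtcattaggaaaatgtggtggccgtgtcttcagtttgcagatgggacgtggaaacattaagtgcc
The Nts window holds 1 AP-1 match, which begins at position -207 from the start. Sprr1a holds 2, at -146 and -116, and Rph3a holds 1, at -101. Rph3a has 3 window entries, of which only the first was used here, and the shares below also use the first entry of each gene. The windows of Wfdc3, Atf3, Gal, Npy, Mrgprd, Mrgprx1 and Tpbgl hold no match to these letters, and none of the 10 holds a CRE match. Among 9885 tested genes with a RefSeq window, 4.96% hold an AP-1 match, against 7.93% of all 27025 windows of the table. The share was 13.5% of 133 genes that rose by at least 2, 10.1% of 760 that rose by at least 1, 4.4% of 613 that fell by at least 1 and 6.12% of 49 that fell by at least 2. For the CRE motif the shares were 3.3% of tested genes, 0.752% of those that rose by at least 2 and 3.59% of those that fell by at least 1. A match describes the letters only.

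Transcription factors linked to nerve injury were called higher more often than lower in dKO ganglia, with 18 of 32 tested members called higher, 2 lower and a median change of 0.52, beside 23.8% of all genes called higher and a median of -0.001. Sox11, a developmental factor re-expressed in regenerating neurons, measured 2.71 and 3.28 FPKM after sham surgery and 16.3 and 24.4 FPKM after axotomy (2.40 ± 0.19, adjusted p = 5.3e-05). Cebpd, a factor of acute inflammation, rose by 1.72 ± 0.14 and the homeobox repressor Tgif1 by 1.57 ± 0.14. Sox4 (-0.74 ± 0.14) and Stat3 (-0.68 ± 0.17, 44.9 and 46.1 FPKM after sham surgery and 31.6 and 24.8 FPKM after axotomy) fell. Stat3, the transducer of gp130 cytokine signals, lost its call without dKO SNI 2 (adjusted p = 0.0657). Without dKO sham 2 the list held 4 falls. Jun, a partner of Atf3 named here after its values were seen, measured 37.7 and 43.4 FPKM after sham surgery and 48.7 and 43.2 FPKM after axotomy and was not called (0.18 ± 0.22, adjusted p = 0.525).

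Neuropeptides split by their known behaviour. Of 8 tested peptides that axotomy induces in rodents, 7 rose (median 3.11). Beside Nts, Gal, Npy and Ucn, the corticotropin-releasing hormone gene Crh measured 0.772 and 0.406 FPKM after sham surgery and 10.1 and 11.2 FPKM after axotomy (2.88 ± 0.25, adjusted p = 7.69e-05). Of 12 tested peptides of resting sensory neurons 9 fell and 1 rose (median -1.25). Sst, the somatostatin precursor of an itch neuron class, measured 39 and 21.9 FPKM after sham surgery and 6.79 and 4.48 FPKM after axotomy (-2.21 ± 0.30, adjusted p = 4.42e-04), and its WT change was 0.24 ± 0.30 (adjusted p = 0.586). The difference between the Sst responses was -2.45 ± 0.42 and did not pass (adjusted p = 0.164). The resting peptide that rose was Grp, gastrin-releasing peptide, with 0.0911 and 0.332 FPKM after sham surgery and 3.52 and 2.46 FPKM after axotomy (1.71 ± 0.18).

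Growth cone and axon growth genes were called higher in 14 of 30 and lower in 3, at a median of 0.34. Stmn4, a stathmin that binds tubulin, measured 13.4 and 13.5 FPKM after sham surgery and 83.7 and 95.8 FPKM after axotomy (2.65 ± 0.13, adjusted p = 1.11e-05). The adhesion protein Flrt3 (2.71 ± 0.18), the growth factor Fgf3 (2.78 ± 0.16) and the urokinase receptor Plaur (1.79 ± 0.14) rose too. Gap43, a growth cone protein named here after its values were seen, measured 152 and 143 FPKM after sham surgery and 402 and 365 FPKM after axotomy (1.37 ± 0.16). The collapsin response mediator Dpysl3 went the other way, with 83.3 and 78.4 FPKM after sham surgery and 43.7 and 35.8 FPKM after axotomy (-1.01 ± 0.14, adjusted p = 6.07e-04). Its relatives Dpysl2 (-0.50 ± 0.18, adjusted p = 0.046) and Dpysl5 (-0.47 ± 0.17, adjusted p = 0.0453) were called narrowly, and each lost its call in 5 of the 8 fits that left out 1 library, with adjusted p of 0.128 for Dpysl2 and 0.286 for Dpysl5 without dKO SNI 2. Of 15 tubulins 3 rose and 4 fell, shares near those of all genes (23.8% and 24.6%), and quantile normalization gave 2 rises and 7 falls. Tubb6, a beta tubulin, measured 6.3 and 9.52 FPKM after sham surgery and 46.2 and 35.4 FPKM after axotomy (2.24 ± 0.20, adjusted p = 8.8e-05), and Tuba1c rose by 0.77 ± 0.14. Tubb4a, a neuronal isotype, measured 216 and 222 FPKM after sham surgery and 88.5 and 50.4 FPKM after axotomy (-1.70 ± 0.30, adjusted p = 0.00163), while Tuba4a (-1.23 ± 0.20) and the gamma-tubulin Tubg1 (-1.09 ± 0.17) fell.

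Genes of resting sensory neurons led the falls. The largest fall of all was of Htr3a, a subunit of the serotonin-gated channel, with 77.8 and 67.4 FPKM after sham surgery and 10.3 and 5.48 FPKM after axotomy (-3.10 ± 0.23, adjusted p = 4.54e-05). Its partner subunit Htr3b measured 8.61 and 7.0 FPKM after sham surgery and 0.904 and 0.881 FPKM after axotomy (-2.21 ± 0.14, adjusted p = 2.9e-05). The neuronal pentraxin Nptx1, which clusters glutamate receptors, measured 28.9 and 35.2 FPKM after sham surgery and 4.62 and 2.76 FPKM after axotomy (-2.84 ± 0.25), and Rph3a, rabphilin of synaptic vesicles, measured 52.8 and 66.2 FPKM after sham surgery and 8.96 and 6.28 FPKM after axotomy (-2.82 ± 0.22). The itch and pain receptors Mrgprd (-2.73 ± 0.26) and Mrgprx1 (-2.58 ± 0.34) and the transcription factor Pou4f3 (-2.66 ± 0.21) were also among the 15 largest falls. Mrgprx1 belongs to a family of close paralogs that can share reads. For each of these 7 genes dKO SNI 2 was the lowest of the 8 libraries. In whole ganglia, fewer cells of a type and less RNA per cell cannot be told apart.

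The neurofilaments, intermediate filaments of large axons, were among the 10 largest falls in FPKM. Nefl measured 1603 and 1778 FPKM after sham surgery and 636 and 407 FPKM after axotomy (-1.73 ± 0.27, adjusted p = 9.24e-04), Nefm measured 644 and 838 FPKM after sham surgery and 216 and 133 FPKM after axotomy (-2.11 ± 0.32) and Nefh measured 406 and 534 FPKM after sham surgery and 124 and 70.7 FPKM after axotomy (-2.30 ± 0.33). In the list of 14 neurofilaments and microtubule-associated proteins 11 fell and none rose, with a median of -0.89, and Map1a (-1.85 ± 0.24), Map1b (-1.81 ± 0.26) and Mapt (-1.05 ± 0.15) were among them. Its summed FPKM took 1.3 and 1.37% of the dKO sham libraries and 0.467 and 0.309% of the dKO SNI libraries. The sodium pump regulator Fxyd2 (-1.14 ± 0.24), the adaptor Ywhah (-1.16 ± 0.20), the chaperone Hsp90ab1 (-1.17 ± 0.22), the secreted follistatin-like protein Fstl1 (-1.41 ± 0.18) and peripherin (Prph, -0.92 ± 0.19) were also among the 10 largest falls in FPKM.

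In each family of voltage-gated channels more genes fell than rose, beside 24.6% of all genes called lower. Of 13 sodium channel genes 10 fell and 1 rose (median -1.20). Scn10a, the pore of the nociceptor channel Nav1.8, measured 111 and 95.8 FPKM after sham surgery and 29.3 and 20.2 FPKM after axotomy (-2.04 ± 0.18, adjusted p = 7.66e-05). Scn11a, the related Nav1.9, measured 68.1 and 53.6 FPKM after sham surgery and 16.1 and 9.59 FPKM after axotomy (-2.19 ± 0.21), and all 4 beta subunits fell. The exception was Scn2a1 (0.51 ± 0.18, adjusted p = 0.0452), which measured 2.06 and 1.31 FPKM after sham surgery and 2.34 and 3.27 FPKM after axotomy and lost its call in 6 of the 8 fits that left out 1 library (adjusted p = 0.25 without dKO sham 2 and 0.274 without dKO SNI 2). Of 51 potassium channel genes 42 fell and 2 rose (median -1.10), and among the 31 voltage-gated Kv members 29 fell and none rose. The A-type channel Kcnd1 measured 38.3 and 42.4 FPKM after sham surgery and 11.8 and 8.81 FPKM after axotomy (-1.88 ± 0.15), and Kcnk18, the leak channel TRESK, measured 2.35 and 2.57 FPKM after sham surgery and 0.375 and 0.231 FPKM after axotomy (-1.41 ± 0.13). The potassium channel genes that rose were the leak channel Kcnk16 (1.53 ± 0.27) and the BK channel subunit Kcnmb4 (0.49 ± 0.13, not called with a common total, adjusted p = 0.0747). Of 14 calcium channel genes 9 fell and 1 rose. The riser was Cacna2d1, the gabapentin-binding auxiliary subunit, with 26.7 and 17.1 FPKM after sham surgery and 50.9 and 53 FPKM after axotomy (1.24 ± 0.19, adjusted p = 7.65e-04), while its relatives Cacna2d2 (-1.39 ± 0.15) and Cacna2d3 (-1.06 ± 0.15) fell.

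Receptors for touch, temperature and transmitters followed. Of 19 TRP and mechanosensitive channel genes 13 fell (median -0.93). Piezo2, the main touch channel, measured 26.1 and 24.3 FPKM after sham surgery and 10.9 and 10.3 FPKM after axotomy (-1.17 ± 0.12, adjusted p = 1.44e-04), and the cold receptor Trpm8 measured 9.09 and 6.43 FPKM after sham surgery and 2.26 and 0.896 FPKM after axotomy (-1.80 ± 0.24). Piezo1, a mechanosensitive channel of many cell types, was the only member called higher, at 0.771 and 0.828 FPKM after sham surgery and 1.82 and 1.8 FPKM after axotomy (0.64 ± 0.13). Of 33 ligand-gated channel genes 22 fell and 2 rose, with the nicotinic subunit Chrna7 at -2.32 ± 0.19 and the kainate subunit Grik1 at -2.01 ± 0.19. The gainers there were the GABA receptor subunit Gabrg1 (1.9 and 2.8 FPKM after sham surgery and 5.7 and 5.88 FPKM after axotomy, 1.03 ± 0.16) and the ATP receptor P2rx7 (0.51 ± 0.15), whose call was lost without dKO sham 1 (adjusted p = 0.0776) and without dKO SNI 2 (adjusted p = 0.0791). Of 35 G protein-coupled receptors of sensory neurons 28 fell, such as the delta opioid receptor Oprd1 with 3.0 and 3.36 FPKM after sham surgery and 0.383 and 0.102 FPKM after axotomy (-1.76 ± 0.15) and the lysophosphatidic acid receptor Lpar5 (-1.46 ± 0.13). Only Gpr151 and the gastrin receptor Cckbr rose in that list, and Cckbr measured 1.39 and 1.33 FPKM after sham surgery and 12.8 and 10.3 FPKM after axotomy (2.40 ± 0.17) against a WT change of 3.77 ± 0.17.

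Transcription factors that specify sensory neurons fell in 26 of 31 cases, with 3 rises and a median of -0.94. Isl2 measured 66.6 and 70.4 FPKM after sham surgery and 19.3 and 14.7 FPKM after axotomy (-1.96 ± 0.15, adjusted p = 4.54e-05), Hoxd1 measured 9.43 and 9.36 FPKM after sham surgery and 1.27 and 0.765 FPKM after axotomy (-2.38 ± 0.16) and the pan-sensory factor Pou4f1 measured 35.4 and 33.4 FPKM after sham surgery and 13.6 and 10.6 FPKM after axotomy (-1.44 ± 0.15). Maf (0.60 ± 0.14) and Ebf2 (0.79 ± 0.17) were among the members that rose. Of 41 synaptic vesicle and release genes 35 fell and 2 rose, with the lowest median of all lists with at least 5 tested members, -1.41. No rise was called without dKO sham 2, without dKO SNI 2 or with a common total. The complexin Cplx2 measured 25.1 and 27.3 FPKM after sham surgery and 6.67 and 3.93 FPKM after axotomy (-2.14 ± 0.20) and the vesicle protein Sv2b measured 36.4 and 35.9 FPKM after sham surgery and 11.8 and 7.86 FPKM after axotomy (-1.80 ± 0.17). Of 17 genes of the axon initial segment and node 13 fell, including the node adhesion genes Cntn1 (-1.65 ± 0.18) and Cntnap2 (-1.60 ± 0.18), and 1 rose, the Schwann cell ligand Lgi4 (0.51 ± 0.14), which was not called without dKO sham 1 (adjusted p = 0.0708) or without dKO SNI 2 (adjusted p = 0.101). The GDNF family receptor Gfra2 measured 18.1 and 18.2 FPKM after sham surgery and 6.73 and 3.86 FPKM after axotomy (-1.64 ± 0.19). Among 16 neurotrophic receptors 9 fell and 1 rose, the interleukin 6 receptor Il6ra (1.08 ± 0.14). Among 9 ligands 4 rose, including Fgf3, Igf1 (0.54 ± 0.18) and Cntf, which measured 22.4 and 41.9 FPKM after sham surgery and 50.7 and 83 FPKM after axotomy (1.06 ± 0.30). Igf1 was not called without dKO sham 1 (adjusted p = 0.155) or dKO SNI 1 (0.168), and Cntf was not called without dKO sham 1 (0.133) or dKO SNI 2 (0.136). Receptors and ligands together held 5 rises and 10 falls, 3 rises without dKO sham 1, and 3 rises and 5 falls without dKO SNI 2. Of 15 broad neuron markers 12 fell and none rose (median -0.97), and each was detected in every library.

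**Figure D2:**
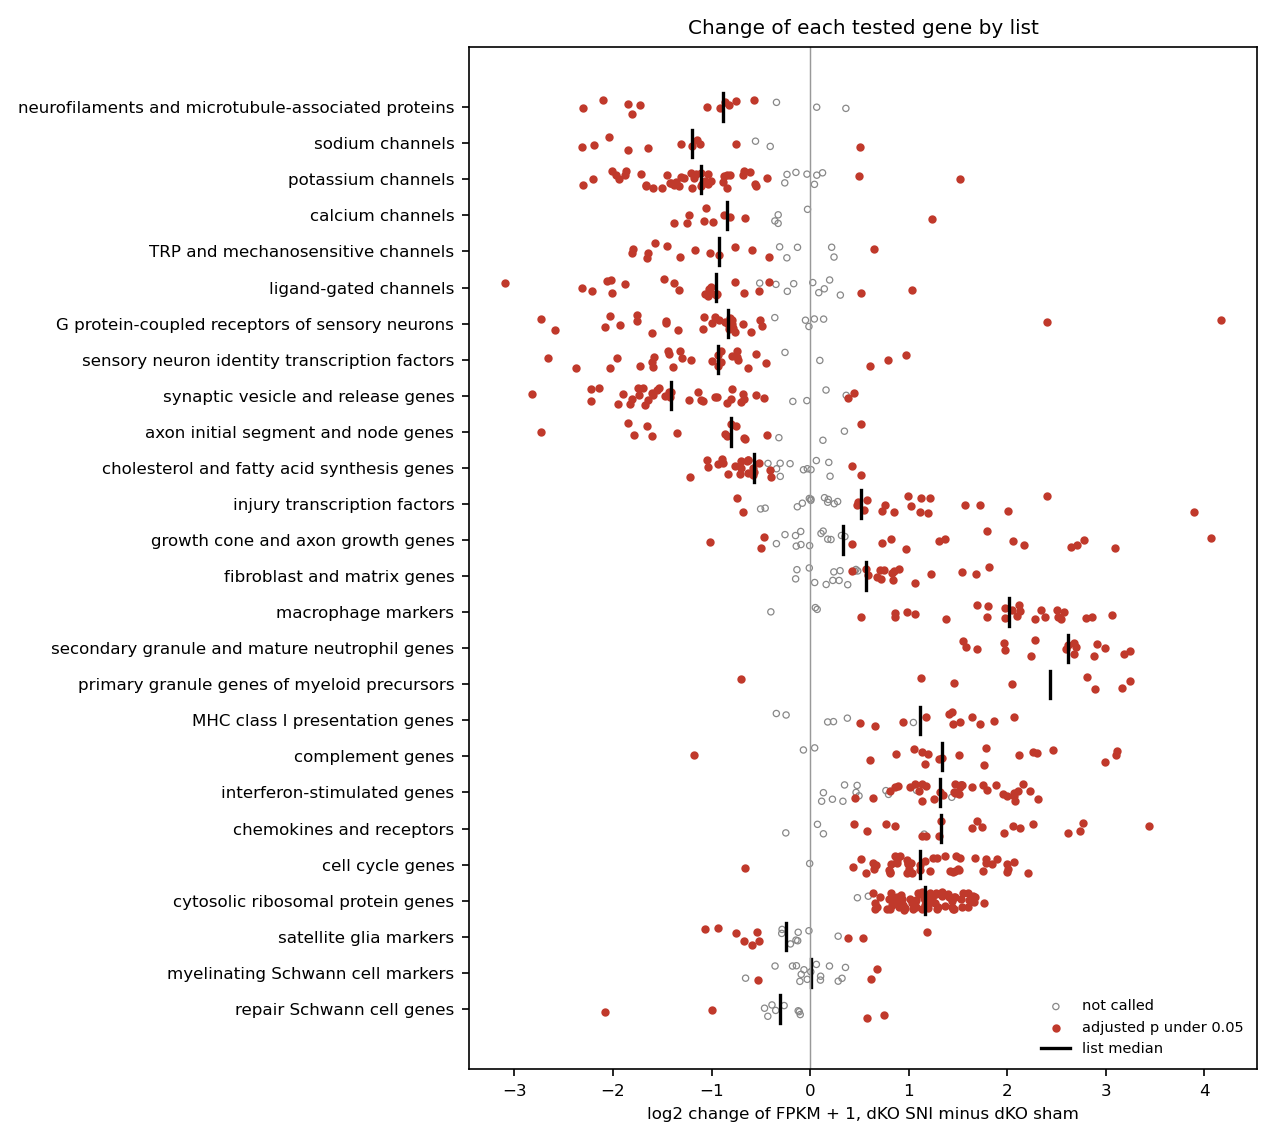
Log2 change (dKO SNI minus dKO sham) of every tested gene in 26 lists. Filled points passed a limma adjusted p of 0.05, open circles did not, and the black bar is the list median. Most members of the channel, receptor and synaptic lists lie to the left of 0, with at most 2 called higher in a list. Most members of the immune, cell cycle and ribosomal lists lie to the right. The complement, primary granule and cell cycle lists each hold 1 member called lower.

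Motor proteins differed by class. Of 22 axonal kinesins and dyneins 17 fell and 2 rose (median -0.83), whereas all 10 tested mitotic kinesins, of 11 listed, rose (median 1.15). These 10 genes were low, with sums of only 6.03 and 8.78 FPKM after sham surgery, against 30.9 and 33.1 once the nerve was cut. Genes this low after sham surgery can pass the filter through the dKO SNI libraries alone, which favours rises. How far the filter shaped this count was not tested. The mitotic Kif22 measured 1.0 and 2.03 FPKM after sham surgery and 8.33 and 9.45 FPKM after axotomy (2.00 ± 0.23). Of 51 axon guidance genes 7 rose and 21 fell. Sema6a, a semaphorin, measured 1.5 and 1.62 FPKM after sham surgery and 10.1 and 10.1 FPKM after axotomy (2.12 ± 0.21, adjusted p = 1.21e-04). Robo2, a Slit receptor, measured 10.7 and 7.51 FPKM after sham surgery and 2.44 and 2.02 FPKM after axotomy (-1.63 ± 0.17), and the Nogo receptor relative Rtn4rl1 measured 21.7 and 24.1 FPKM after sham surgery and 5.78 and 3.67 FPKM after axotomy (-2.08 ± 0.18). Of 17 integrin genes 10 rose and 1 fell. Itga7, a laminin receptor chain induced in regenerating neurons, measured 18.5 and 22.7 FPKM after sham surgery and 83.5 and 90.2 FPKM after axotomy (2.03 ± 0.16, adjusted p = 4.93e-05), and the leukocyte chain Itgb2 measured 3.39 and 4.77 FPKM after sham surgery and 21.9 and 24.2 FPKM after axotomy (2.26 ± 0.22). Itga3 was the chain that fell (-1.14 ± 0.14).

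The actin and myosin genes were of interest because Cre in dKO neurons acts on a pair of them. Of 50 tested actomyosin genes 17 rose and 7 fell (median 0.27), and without dKO SNI 2 the counts were 10 and 4. With all libraries 34.0% of the list rose and 14.0% fell, beside 23.8% and 24.6% of all genes. The third non-muscle heavy chain gene, Myh14, named here after its values were seen, fell like Myh10 (-1.27 ± 0.19, 11.1 and 12.7 FPKM after sham surgery and 5.1 and 3.64 FPKM after axotomy). The filament crosslinker Flna measured 13.7 and 14.5 FPKM after sham surgery and 39.8 and 45.1 FPKM after axotomy (1.53 ± 0.13, adjusted p = 6.41e-05), the tropomyosin Tpm4 measured 54.8 and 52.7 FPKM after sham surgery and 124 and 128 FPKM after axotomy (1.21 ± 0.14) and the GTPase Rhoc measured 43.1 and 52.9 FPKM after sham surgery and 117 and 123 FPKM after axotomy (1.31 ± 0.15). Tmsb4x, the actin monomer binder thymosin beta 4, had the largest gain in FPKM among called genes, with 1282 and 1477 FPKM after sham surgery and 3635 and 5160.2 FPKM after axotomy (1.65 ± 0.29, adjusted p = 0.00157). Which cells carried the added Myh9 was not tested.

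Glial markers moved in both directions. Of 18 satellite glia markers 3 rose (16.7%) and 7 fell (38.9%), with a median of -0.24, beside 23.8% and 24.6% of all genes. Kcnj10, the potassium channel of these glia, measured 14.7 and 14.9 FPKM after sham surgery and 7.18 and 5.9 FPKM after axotomy (-1.07 ± 0.16, adjusted p = 7.48e-04), and the gap junction gene Gja1 measured 10.9 and 10.5 FPKM after sham surgery and 6.1 and 6.53 FPKM after axotomy (-0.68 ± 0.14). Cdh19 rose (8.99 and 6.38 FPKM after sham surgery and 15.6 and 22.1 FPKM after axotomy, 1.19 ± 0.19). The rises numbered 1 without dKO sham 1, dKO sham 2 or dKO SNI 2, and the falls numbered 3 without dKO sham 2 and 4 without dKO SNI 2. The lipid carrier Apoe, which these glia and macrophages share, measured 2591 and 2243 FPKM after sham surgery and 1681 and 1215 FPKM after axotomy (-0.75 ± 0.24, adjusted p = 0.0264), and it was not called without dKO sham 1 (adjusted p = 0.142), dKO sham 2 (0.0627) or dKO SNI 2 (0.151). Of 19 myelinating Schwann cell markers 16 were not called, and their median of 0.01 turned to -0.05 under quantile normalization and to -0.12 with a common total. It was -0.26 without dKO sham 1 and 0.29 without dKO sham 2. Genes of the repair Schwann cell, a state formed in the cut nerve, were not called in 8 of 12 cases, and Ngfr, the low-affinity neurotrophin receptor that neurons share, was the largest fall there (101 and 126 FPKM after sham surgery and 34 and 19.5 FPKM after axotomy, -2.08 ± 0.27). Of 3 tested melanocyte markers Tyrp1 and Kit fell.

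Matrix and barrier genes were called higher more often than lower. Of 29 fibroblast and matrix genes 16 rose and none fell (median 0.57), and either without dKO sham 1 or without dKO SNI 2 the count was 8. The proteoglycan Dcn measured 262 and 289 FPKM after sham surgery and 685 and 941 FPKM after axotomy (1.54 ± 0.29, adjusted p = 0.00224), the collagen crosslinker Loxl2 measured 1.69 and 1.87 FPKM after sham surgery and 5.74 and 5.28 FPKM after axotomy (1.23 ± 0.15) and the protease inhibitor Timp1 measured 0.889 and 1.99 FPKM after sham surgery and 7.76 and 6.98 FPKM after axotomy (1.81 ± 0.23). Of 12 perineurial and meningeal markers 10 rose and 1 fell (5 rises without dKO sham 1, and 5 without dKO SNI 2). The tight junction gene Cldn1 measured 7.3 and 6.79 FPKM after sham surgery and 14 and 18.5 FPKM after axotomy (1.09 ± 0.18) and Foxd1 measured 1.96 and 2.14 FPKM after sham surgery and 6.09 and 7.81 FPKM after axotomy (1.37 ± 0.19). Apod, an apolipoprotein of fibroblasts and glia, measured 531 and 766 FPKM after sham surgery and 2413 and 2752 FPKM after axotomy (2.01 ± 0.28, adjusted p = 5.4e-04). Of 18 endothelial markers 8 rose and none fell, but without dKO sham 1 or without dKO SNI 2 the count was 2. Vwf, the von Willebrand factor of endothelium and platelets, measured 2.36 and 3.0 FPKM after sham surgery and 6.12 and 6.32 FPKM after axotomy (0.98 ± 0.18). The cartilage matrix gene Comp measured 6.77 and 7.54 FPKM after sham surgery and 0.631 and 1.33 FPKM after axotomy (-2.06 ± 0.19), with a WT change of -2.07 ± 0.19.

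Macrophage transcripts rose. Of 28 tested macrophage markers 25 rose and none fell, with a median of 2.02. Mrc1, the mannose receptor of resident macrophages, measured 3.36 and 3.33 FPKM after sham surgery and 27.7 and 22.2 FPKM after axotomy (2.57 ± 0.14, adjusted p = 1.79e-05). Cd68, a lysosomal protein of phagocytes, measured 4.02 and 4.36 FPKM after sham surgery and 25.5 and 32.2 FPKM after axotomy (2.51 ± 0.18) and the scavenger receptor Cd163 measured 0.952 and 0.948 FPKM after sham surgery and 7.61 and 5.88 FPKM after axotomy (1.98 ± 0.14). The marker Adgre1 (F4/80) rose by 2.34. The receptor Csf1r measured 4.6 and 5.4 FPKM after sham surgery and 25.1 and 24.2 FPKM after axotomy (2.10 ± 0.16) and its ligand Csf1, which injured sensory neurons make, measured 4.42 and 4.29 FPKM after sham surgery and 20.2 and 18.3 FPKM after axotomy (1.91 ± 0.19). Together the macrophage markers took 0.119 and 0.109% of FPKM after sham surgery and 0.26 and 0.277% after axotomy.

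Neutrophil transcripts rose too. All 17 tested genes of secondary granules and mature neutrophils were called higher, with a median of 2.61 and a range of 1.55 to 3.25, and their summed FPKM went from 0.279 and 0.433% of the library to 2.38 and 2.29%. S100a8 measured 222 and 377 FPKM after sham surgery and 2742 and 2760.4 FPKM after axotomy and its partner S100a9 measured 237 and 446 FPKM after sham surgery and 2439 and 2356 FPKM after axotomy (2.88 ± 0.38, adjusted p = 3.89e-04). The antimicrobial Camp measured 38 and 60.7 FPKM after sham surgery and 400.2 and 378 FPKM after axotomy (2.99 ± 0.27), lactoferrin (Ltf) measured 24.8 and 30.4 FPKM after sham surgery and 225 and 202 FPKM after axotomy (2.91 ± 0.29) and the chitinase-like Chil3 measured 17.4 and 24.2 FPKM after sham surgery and 131 and 130.4 FPKM after axotomy (2.61 ± 0.24). For each of these genes both axotomy libraries were above both sham libraries, as they were for 37.7% of all genes. The rules that chose the named genes favour such genes. Primary granule genes are transcribed in myeloid precursors of the marrow rather than in mature neutrophils. In the list named for them, not all members of which encode granule proteins, 7 of 8 tested genes rose (median 2.43). Mpo measured 7.51 and 7.77 FPKM after sham surgery and 63.4 and 56.2 FPKM after axotomy (2.81 ± 0.16, adjusted p = 1.79e-05), Elane measured 9.86 and 6.21 FPKM after sham surgery and 78.4 and 87.1 FPKM after axotomy, Prtn3 measured 4.25 and 5.64 FPKM after sham surgery and 48.4 and 56 FPKM after axotomy (3.17 ± 0.20) and Ctsg measured 1.06 and 2.04 FPKM after sham surgery and 19.8 and 15.4 FPKM after axotomy (2.89 ± 0.23). The eighth, the calreticulin relative Calr3, fell (-0.70 ± 0.18) and lost its call when dKO sham 2 (adjusted p = 0.069) or dKO SNI 1 (0.0548) was left out. Spi1, the factor PU.1 of myeloid cells, measured 2.28 and 3.64 FPKM after sham surgery and 22.9 and 19.6 FPKM after axotomy (2.51 ± 0.18). It had the largest rise in a list of 11 tested stem and progenitor cell markers of marrow, which did not move together. Of these 5 rose and 3 fell, with a median of 0.09, and of -0.09 with a common total.

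Other blood lineages varied between the libraries of a group. Erythroid markers took 0.755 and 1.75% of FPKM after sham surgery and 2.41 and 0.965% after axotomy, so that the groups overlapped. Of 19 tested, 7 rose and none fell, and the count was 1 without dKO sham 1, 2 without dKO SNI 1, or 13 when dKO SNI 2 was left out. The early erythroid enzyme Car1 did not overlap, with 1.25 and 1.33 FPKM after sham surgery and 15.2 and 11.6 FPKM after axotomy (2.64 ± 0.14, adjusted p = 1.79e-05). Of 7 tested megakaryocyte and platelet markers 3 rose and none fell, and of 11 B cell and B precursor markers 5 rose and 1 fell. Of 11 eosinophil, basophil and mast cell markers 5 rose and none fell, and of 5 T and NK cell markers 3 rose and 1 fell. Over all genes 23.8% rose and 24.6% fell. Pf4, Dntt, Hdc and Nkg7 had the largest rise of their lists. The platelet chemokine Pf4 measured 11.8 and 12.7 FPKM after sham surgery and 90.3 and 88.6 FPKM after axotomy (2.77 ± 0.38). Dntt, a recombination enzyme of lymphoid precursors, measured 0.22 and 0.242 FPKM after sham surgery and 2.38 and 1.64 FPKM after axotomy (1.28 ± 0.16), and the basophil and mast cell enzyme Hdc measured 1.59 and 2.51 FPKM after sham surgery and 9.35 and 7.49 FPKM after axotomy (1.64 ± 0.23). Nkg7 measured 1.21 and 0.229 FPKM after sham surgery and 14.8 and 12.4 FPKM after axotomy (3.14 ± 0.34, adjusted p = 1.66e-04) and granzyme A (Gzma) measured 0.344 and 0.673 FPKM after sham surgery and 2.61 and 6.7 FPKM after axotomy (1.81 ± 0.36), both genes of cytotoxic lymphocytes. The T cell genes Cd3d, Cd3e and Cd3g did not reach 1 FPKM in any library and were not tested. None of 8 keratinocyte markers passed the filter, with Krt5 and Dsg3 listed at 0 in every library. How much blood or marrow material the ganglia of each group held was not tested.

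**Figure D3:**
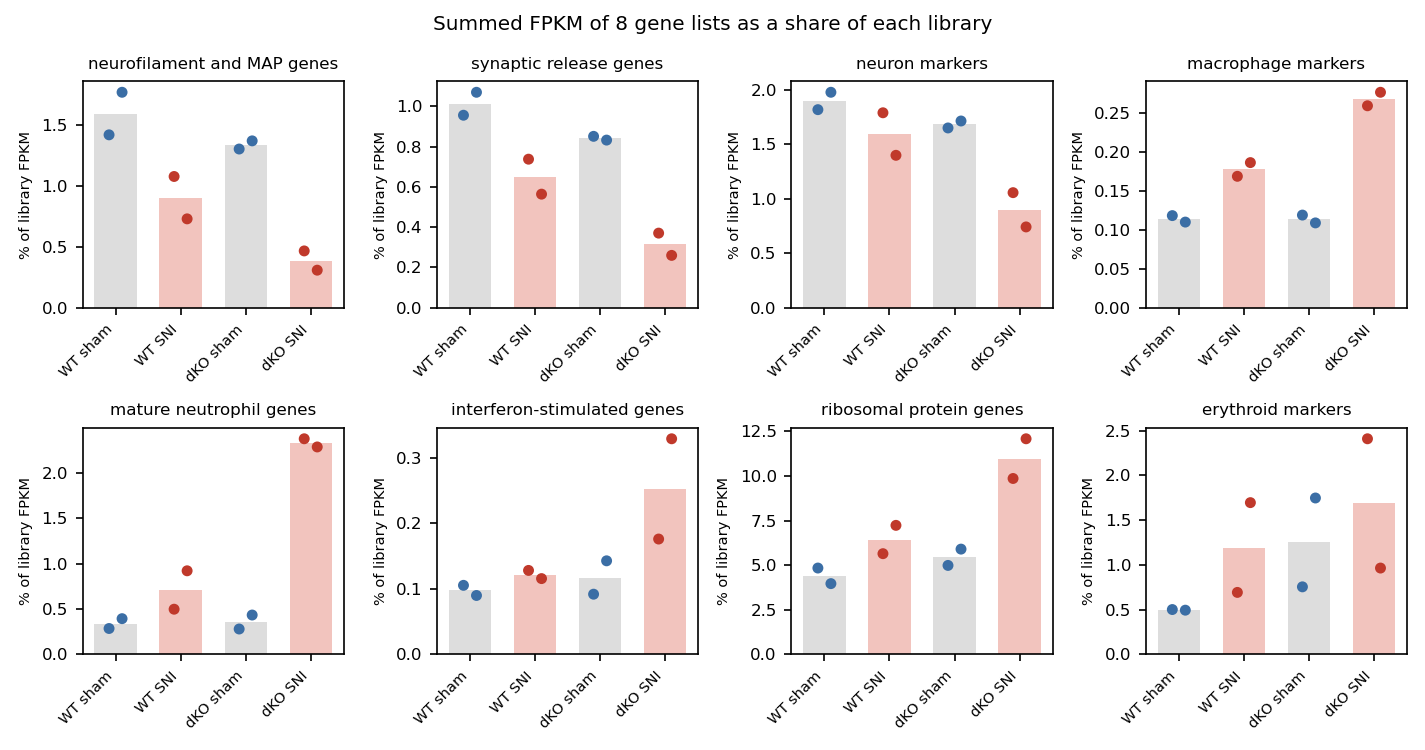
Summed FPKM of 8 gene lists as a share of each library's FPKM, in percent, for the 4 groups. Bars are group means and points the 2 libraries. Neurofilament, synaptic and neuron marker shares are lowest in dKO SNI, mature neutrophil genes reach 2.38 and 2.29% there against at most 0.433% in dKO sham, and the erythroid shares of the 2 dKO groups overlap.

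Complement genes rose in 18 of 21 cases and 1 fell (median 1.33). C1qa, C1qb and C1qc, which macrophages make, gained 3.10, 2.99 and 3.11 on the log2 scale, and C1qb measured 19 and 26.2 FPKM after sham surgery and 167 and 204 FPKM after axotomy (adjusted p = 2.69e-05). Cfp, properdin of the alternative pathway and a neutrophil product, measured 3.92 and 4.91 FPKM after sham surgery and 28.4 and 29.2 FPKM after axotomy (2.47 ± 0.14). The surface inhibitor Cd55, which the ganglion's neurons also express, fell (46.7 and 30.6 FPKM after sham surgery and 17.8 and 14.6 FPKM after axotomy, -1.18 ± 0.20). Of 23 chemokine genes and receptors 19 rose and none fell. Ccl8 measured 0.988 and 3.82 FPKM after sham surgery and 27.9 and 38.1 FPKM after axotomy, Ccl9 measured 1.5 and 1.95 FPKM after sham surgery and 13 and 18.9 FPKM after axotomy (2.62 ± 0.18) and the monocyte receptor Ccr2 measured 1.6 and 2.0 FPKM after sham surgery and 8.95 and 14 FPKM after axotomy (2.13 ± 0.19). Of 41 cytokines and cytokine receptors 26 rose and 4 fell. Il24 measured 0.0601 and 0 FPKM after sham surgery and 3.56 and 3.2 FPKM after axotomy (2.09 ± 0.15, adjusted p = 4.54e-05), while the itch cytokine receptor subunits Il31ra (-0.78 ± 0.23) and Osmr (-0.64 ± 0.20) were among the falls. Without dKO sham 1 their adjusted p were 0.146 and 0.17, without dKO SNI 1 both were 0.064, and without dKO SNI 2 they were 0.0878 and 0.102. The cytokine list held 2 falls without dKO sham 1 and 1 without dKO SNI 1 or dKO SNI 2.

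Antigen presentation and interferon-stimulated genes rose, with counts that depended on single libraries. Of 18 class I presentation genes 12 rose and none fell (median 1.11, and 0.72 without dKO SNI 2). Psmb9, an immunoproteasome subunit, measured 2.1 and 4.01 FPKM after sham surgery and 13.2 and 18.1 FPKM after axotomy (2.06 ± 0.22, adjusted p = 1.73e-04), H2-D1 measured 108 and 117 FPKM after sham surgery and 249 and 361 FPKM after axotomy (1.41 ± 0.21), B2m measured 683 and 574 FPKM after sham surgery and 1337 and 2433 FPKM after axotomy (1.52 ± 0.29) and the peptide transporter Tap1 measured 2.39 and 5.46 FPKM after sham surgery and 10.4 and 19.9 FPKM after axotomy (1.72 ± 0.32). The class I genes have close paralogs that can share reads. Of 47 interferon-stimulated genes 34 rose and none fell (median 1.31), but without dKO SNI 2 the count was 16 and the median 0.74, and without dKO sham 1 the count was 16. Oas2 measured 0.505 and 1.13 FPKM after sham surgery and 4.94 and 5.51 FPKM after axotomy (1.80 ± 0.20) and Irf8, a myeloid factor, measured 1.93 and 2.43 FPKM after sham surgery and 7.26 and 8.87 FPKM after axotomy (1.51 ± 0.20). The spread within a group is shown by Irf7, named after its values were seen, with 2.52 and 9.37 FPKM after sham surgery and 13 and 56.6 FPKM after axotomy (2.23 ± 0.65, adjusted p = 0.0191). It was not called without dKO sham 1 (change 1.45, adjusted p = 0.152) or dKO SNI 2 (change 1.21, adjusted p = 0.153). The second library of each dKO group was the higher one for this gene, and the list took 0.0919 and 0.143% of FPKM after sham surgery and 0.176 and 0.329% after axotomy. Of 9 class II presentation genes 6 rose. The cathepsin Ctss measured 8.59 and 9.84 FPKM after sham surgery and 58.9 and 85.3 FPKM after axotomy (2.82 ± 0.20, adjusted p = 4.54e-05) and the invariant chain Cd74 measured 48.2 and 46.7 FPKM after sham surgery and 96.2 and 116 FPKM after axotomy (1.14 ± 0.15).

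Genes of division and of protein synthesis rose together. Of 48 cell cycle genes 46 rose and 1 fell (median 1.12). Prc1, a spindle protein, measured 2.64 and 2.64 FPKM after sham surgery and 15.2 and 13.3 FPKM after axotomy (2.07 ± 0.15, adjusted p = 4.54e-05), the cyclin Ccna2 measured 2.26 and 3.04 FPKM after sham surgery and 14.5 and 12.6 FPKM after axotomy (2.00 ± 0.18) and the kinase Plk1 measured 0.625 and 1.16 FPKM after sham surgery and 5.45 and 5.48 FPKM after axotomy (1.79 ± 0.16). The fall was of E2f1 (9.18 and 8.16 FPKM after sham surgery and 5.77 and 4.47 FPKM after axotomy, -0.67 ± 0.16), which was not called without dKO sham 1 (adjusted p = 0.0508) or dKO SNI 2 (0.0671). Of 75 cytosolic ribosomal protein genes 72 rose and none fell, with a median of 1.16 and a narrow range of 0.48 to 1.76. Their summed FPKM took 4.98 and 5.90% of the dKO sham libraries and 9.86 and 12.1% of the dKO SNI libraries. Rpl39 measured 134 and 168 FPKM after sham surgery and 410.1 and 563 FPKM after axotomy (1.67 ± 0.22) and Rps19 measured 59.3 and 87.1 FPKM after sham surgery and 196 and 252 FPKM after axotomy (1.61 ± 0.23). These genes have many processed copies, so their values depend on how shared reads were assigned. The neutrophil, cell cycle and ribosomal shares were all higher in both dKO SNI libraries than in both dKO sham libraries, and their part in each other was not tested.

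Glycolysis, citric acid cycle and lipid synthesis genes were called lower more often than higher, beside 23.8% of all genes called higher and 24.6% called lower. Of 38 glycolysis and citric acid cycle genes 6 rose and 21 fell (median -0.50, with 3 rises without dKO sham 1 and 13 falls without dKO SNI 2). Aldoc, the neural aldolase, measured 41.5 and 50.6 FPKM after sham surgery and 18 and 13.7 FPKM after axotomy (-1.49 ± 0.18, adjusted p = 2.57e-04) and the phosphofructokinase Pfkp measured 83.2 and 66.7 FPKM after sham surgery and 37.3 and 28.5 FPKM after axotomy (-1.17 ± 0.17). The lactate exporter Slc16a3 rose (0.874 and 1.02 FPKM after sham surgery and 4.28 and 4.37 FPKM after axotomy, 1.45 ± 0.19). Of 34 sterol and fatty acid synthesis genes 21 fell and 2 rose (median -0.57), with 10 falls without dKO SNI 2. Neither rise was called without dKO sham 1, dKO sham 2 or dKO SNI 1, with a common total or with no filter. Fads2, a desaturase, measured 66.8 and 56.6 FPKM after sham surgery and 33.4 and 25.6 FPKM after axotomy (-1.05 ± 0.16). Of 69 respiratory chain genes 19 rose and 10 fell, with 2 rises without dKO sham 1, 6 falls without dKO sham 2, and 3 rises and 6 falls without dKO SNI 2. With all libraries the share of rises in this list (27.5%) was near that of all genes, and the share of falls (14.5%) was lower. The subunits Ndufa10 (-0.97 ± 0.17) and Sdha (-0.77 ± 0.14) fell, while the ATP synthase subunit Atp5l rose (1.27 ± 0.26).

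Stress and death lists differed in their balance. Of 34 genes of the unfolded protein and integrated stress responses 14 rose and 1 fell (median 0.17), and leaving out dKO sham 1, dKO SNI 1 or dKO SNI 2 gave 4, 8 and 7 rises. With a common total this list had 8 rises, 6 falls and a median of 0.0003. Chac1, a glutathione-degrading target of the integrated stress response, measured 2.94 and 2.59 FPKM after sham surgery and 11.4 and 8.0 FPKM after axotomy (1.49 ± 0.19) and Ddit3, the factor CHOP, measured 4.98 and 5.74 FPKM after sham surgery and 11.7 and 13.8 FPKM after axotomy (1.11 ± 0.14). Of 34 p53 targets and death regulators 20 rose and 8 fell (median 0.62, with 4 falls without dKO sham 2 or without dKO SNI 2). With all libraries the share of falls in this list (23.5%) was near that of all genes (24.6%), and the share of rises (58.8%) was above it (23.8%). Gadd45a measured 20.8 and 22.4 FPKM after sham surgery and 102 and 88.7 FPKM after axotomy (2.09 ± 0.18, adjusted p = 7.92e-05), Cdkn1a (p21) measured 43.6 and 45 FPKM after sham surgery and 122 and 95.6 FPKM after axotomy (1.27 ± 0.16) and the BH3-only gene Pmaip1 measured 0.711 and 0.889 FPKM after sham surgery and 4.19 and 3.64 FPKM after axotomy (1.45 ± 0.14). Of 28 antioxidant and heat shock genes 7 rose and 9 fell, not far from the shares of all genes (23.8% and 24.6%), with 1 rise without dKO sham 1 and 4 without dKO SNI 1. Of these, sulfiredoxin (Srxn1) measured 84.5 and 88 FPKM after sham surgery and 242 and 204 FPKM after axotomy (1.35 ± 0.16), and the chaperone Hsph1 measured 53.1 and 51.5 FPKM after sham surgery and 23 and 15.5 FPKM after axotomy (-1.42 ± 0.19). Of 16 tetrahydrobiopterin and polyamine genes 4 rose, among them Gch1, the enzyme that starts tetrahydrobiopterin synthesis (2.12 and 2.16 FPKM after sham surgery and 6.42 and 5.2 FPKM after axotomy, 1.11 ± 0.24), and 5 fell, among them tyrosine hydroxylase (Th) of a touch neuron class (34 and 29.4 FPKM after sham surgery and 12.6 and 3.73 FPKM after axotomy, -2.02 ± 0.41, and -1.26 without dKO SNI 2). The rises and falls of this list were not far from the shares of all genes (23.8% and 24.6%), and its median was -0.0255. Its falls numbered 2 without dKO sham 2 or without dKO SNI 2. Of 33 lysosomal genes 9 rose and 7 fell, near the shares of all genes (23.8% and 24.6%). Ctss, Ctsc (1.76 ± 0.16) and Ctsh (1.78 ± 0.18) were among the rises, and the list's median of -0.01 was 0.01 after median centring. The falls numbered 3 without dKO sham 1 and 4 without dKO sham 2 or dKO SNI 2.

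The response in dKO ganglia was then set beside that in WT ganglia, which shares no library with it. In WT 2967 genes (23%) were called, 1758 higher (13.6%) and 1209 lower (9.38%). Of the dKO rises 1428 were also called higher in WT, 46.5% of the dKO list and 81.2% of the WT list. Of the dKO falls 1132 were called lower in WT, 35.7% of the dKO list and 93.6% of the WT list. Among the 1641 rises called in dKO alone, 1560 had a WT change above 0, and their medians were 0.68 in dKO and 0.34 in WT. Among the 2035 falls called in dKO alone, 1871 had a WT change below 0, with medians of -0.61 and -0.26. A gene called in 1 genotype alone is thus not shown to respond differently. Among lists of resting neuron genes the medians lay farther from 0 in dKO, for example -1.41 against -0.68 for synaptic genes and -0.89 against -0.47 for neurofilaments and microtubule-associated proteins, as well as for mature neutrophil genes (2.61 against 1.00), interferon-stimulated genes (1.31 against 0.42), class I presentation (1.11 against 0.37) and ribosomal proteins (1.16 against 0.60). Medians nearer to 0 in dKO included those of fibroblast and matrix genes (0.57 against 1.11), growth cone and axon growth genes (0.34 against 0.54), injury transcription factors (0.52 against 0.75) and axotomy-induced neuropeptides (3.11 against 3.54). These medians carry no test of a difference.

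**Figure D4:**
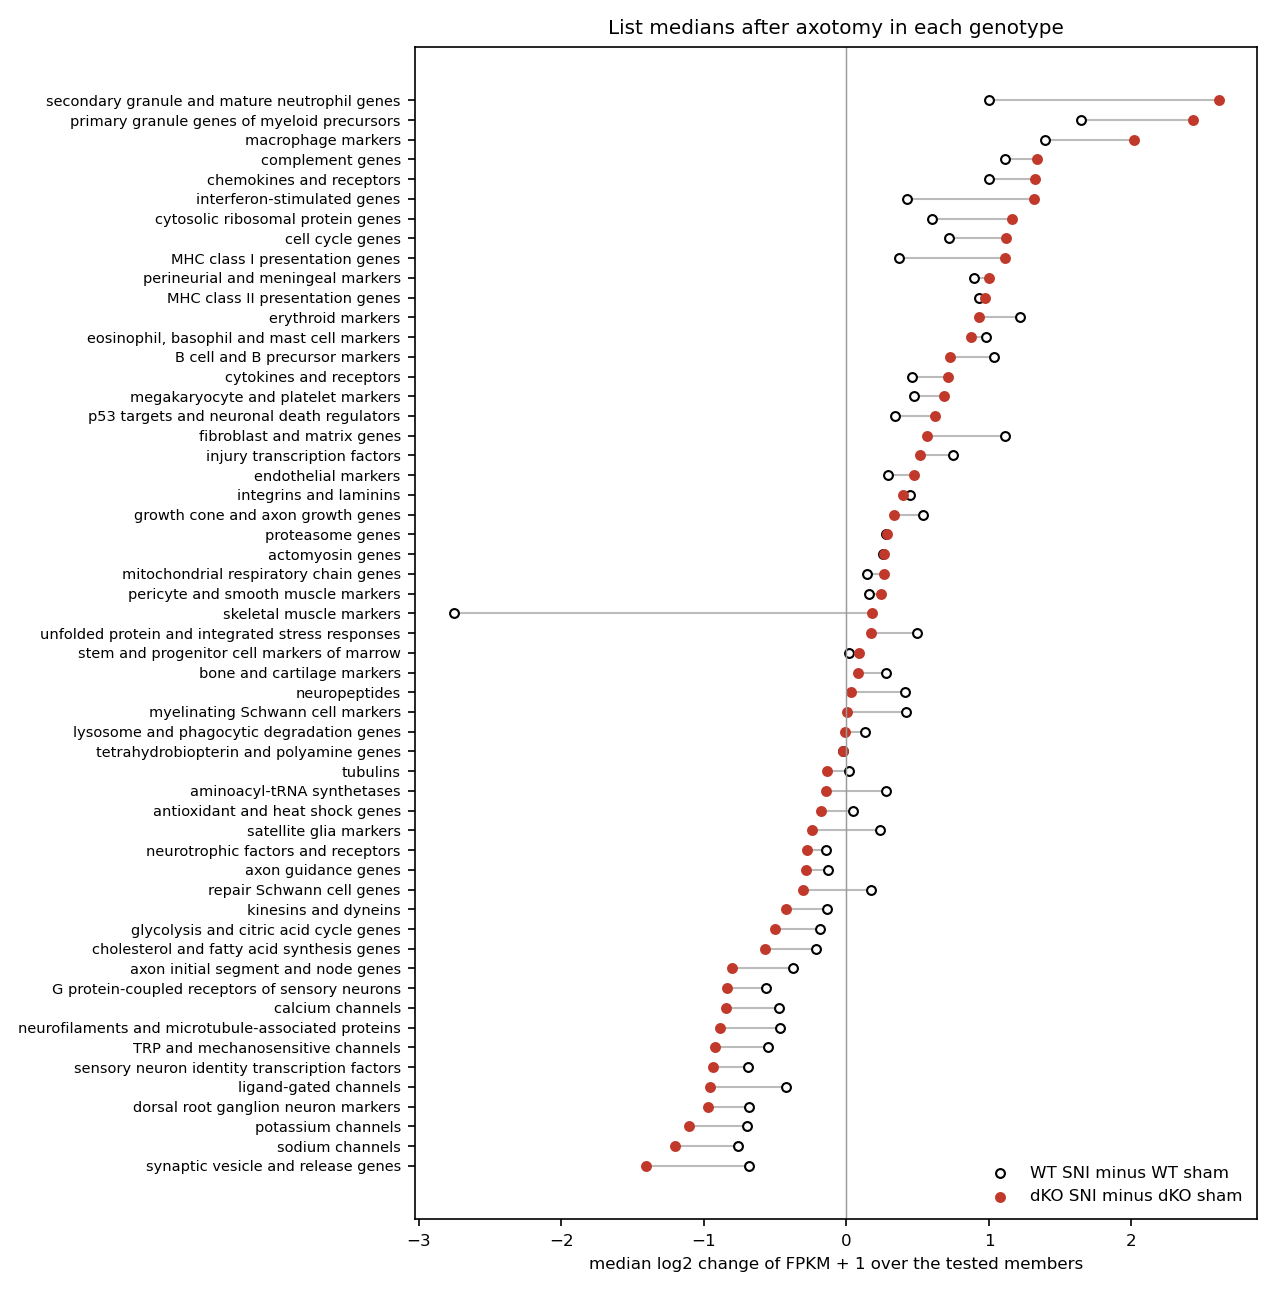
Median log2 change of the tested members of each list with at least 7 of them, in WT (open circles) and dKO ganglia (filled circles), ordered by the dKO value. Mature neutrophil genes stand at 2.61 in dKO against 1.00 in WT and synaptic genes at -1.41 against -0.68. The WT value of -2.76 for muscle genes includes WT sham 2, in which they took 0.283% of FPKM.

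The difference between the 2 responses was tested gene by gene, and 7 of 12884 genes passed (0.0543%, limma), 0.0466% with a higher and 0.00776% with a lower value in dKO. Apart from the Y-linked Kdm5d, Uty, Ddx3y and Eif2s3y the 7 genes were Tyrp1, Asprv1 and the predicted gene Gm38495. At an unadjusted p under 0.05 there were 1863, of which 649 (5.04%) had a higher and 1214 (9.42%) a lower value in dKO. Tyrp1, an enzyme of melanin synthesis, measured 25.6 and 23.5 FPKM after sham surgery and 9.83 and 8.53 FPKM after axotomy (-1.33 ± 0.13) but 3.61 and 4.36 FPKM after sham surgery and 16.9 and 16.7 FPKM after axotomy in WT (1.84 ± 0.13). Its fall in dKO and rise in WT gave a difference of -3.17 ± 0.19 (adjusted p = 5.93e-05), and the highest group was dKO sham. Asprv1, a retroviral-like aspartic protease best known from skin, measured 1.17 and 1.27 FPKM after sham surgery and 7.22 and 7.74 FPKM after axotomy (1.93 ± 0.13) and 1.51 and 1.38 FPKM after sham surgery and 2.36 and 2.7 FPKM after axotomy in WT (0.53 ± 0.13), a difference of 1.40 ± 0.18 (adjusted p = 0.0408). Gm38495 measured 0.042 and 0.0278 FPKM after sham surgery and 5.49 and 8.02 FPKM after axotomy, while in WT it was listed near 0 in 3 libraries and at 0.591 FPKM in WT SNI 2, a difference of 2.55 ± 0.33 (adjusted p = 0.0408). Since the Y-linked transcripts divide the groups along the same contrast, genotype and sex cannot be told apart in any of these differences.

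**Figure D5:**
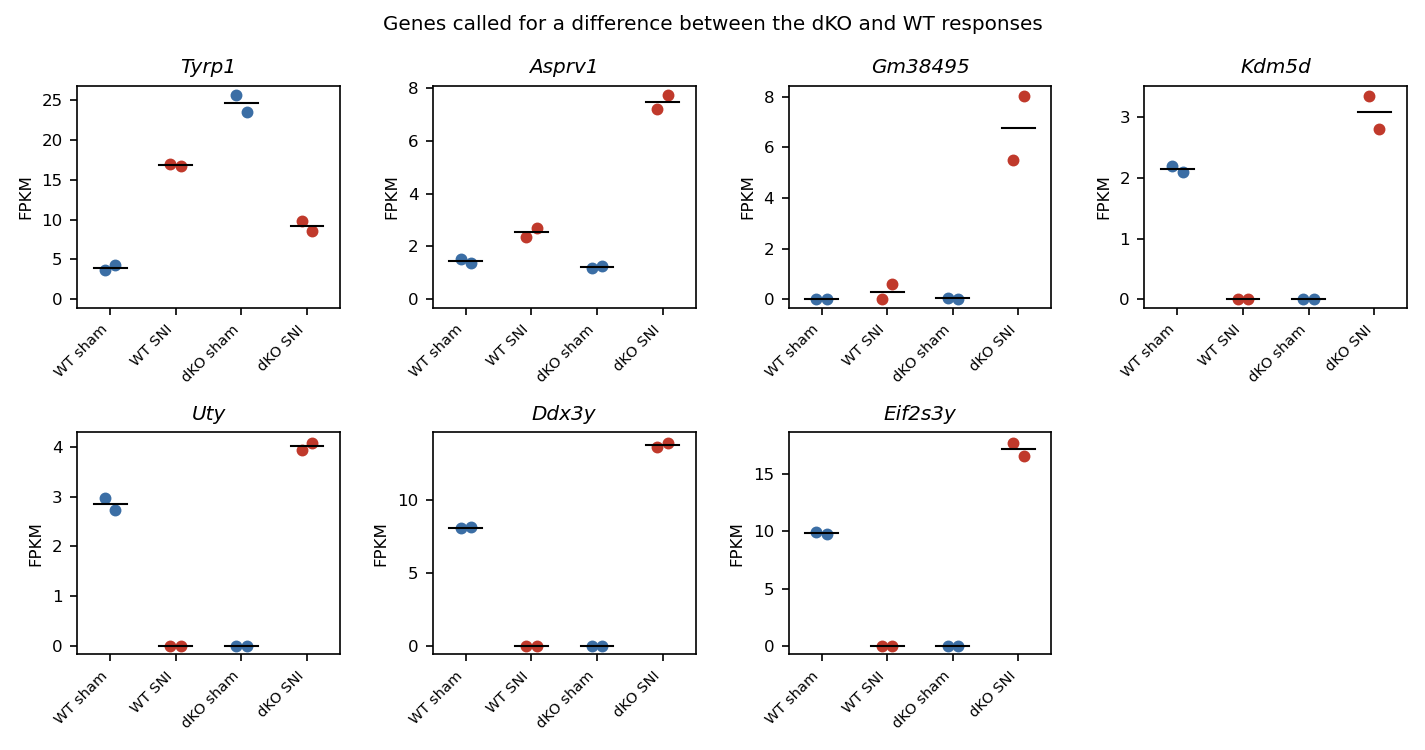
FPKM of the 7 genes called for a difference between the dKO and WT responses, with the 2 libraries of each group as points and their mean as a bar. Tyrp1 is highest in dKO sham and lowest in WT sham, Asprv1 and Gm38495 are highest in dKO SNI, and the 4 Y-linked genes are present in WT sham and dKO SNI only.

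Among the genes with the smallest p for this difference that did not pass, those with a larger dKO response included Dera, an aldolase of deoxyribose breakdown (1.40 ± 0.21, adjusted p = 0.102), the leukocyte receptor Lilrb4a (1.22 ± 0.20, adjusted p = 0.144) and the neutrophil ficolin Fcnb (1.25 ± 0.24, adjusted p = 0.197). Dera measured 1.75 and 1.33 FPKM after sham surgery and 6.06 and 5.81 FPKM after axotomy against 2.41 and 2.71 FPKM after sham surgery and 2.34 and 3.07 FPKM after axotomy in WT. Myh9 was among them too (0.98 ± 0.18, adjusted p = 0.193), with a WT change of 0.04 ± 0.13. Those with a smaller dKO value included the collagen gene Col3a1 (-1.59 ± 0.25, adjusted p = 0.143) and the artemin receptor Gfra3 (-1.08 ± 0.18, adjusted p = 0.144). Col3a1 measured 43 and 55.8 FPKM after sham surgery and 77.7 and 84.9 FPKM after axotomy (0.72 ± 0.18) against 13.5 and 11.5 FPKM after sham surgery and 57.2 and 75.3 FPKM after axotomy in WT, and its dKO call was lost without dKO sham 1 (adjusted p = 0.0716) and without dKO SNI 2 (0.0567). Gfra3 measured 44.2 and 38.4 FPKM after sham surgery and 33.4 and 34.1 FPKM after axotomy and was not called in dKO (adjusted p = 0.0948), except with a common total (-0.46, adjusted p = 0.0229). In all, 12 genes were called in both genotypes with opposite signs. Tyrp1, the protease-like Prss35, the superoxide dismutase Sod3, the histone gene Hist1h2be, podoplanin (Pdpn) and Srp54b fell in dKO and rose in WT, and Rgs14, Tbc1d5 and the 4 Y-linked genes did the reverse. Prss35 measured 13.8 and 15.9 FPKM after sham surgery and 8.49 and 5.55 FPKM after axotomy and 7.22 and 6.2 FPKM after sham surgery and 14 and 11.3 FPKM after axotomy in WT, with a difference of -1.82 ± 0.27 (adjusted p = 0.0917). The dKO calls of Srp54b, Sod3, Hist1h2be, Pdpn and Tbc1d5 were each lost when 1 library was left out, with highest adjusted p of 0.109, 0.112, 0.185, 0.203 and 0.172, while those of Prss35 and Rgs14 were kept in all 8 such fits.

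A few genes were near silent after sham surgery and present after axotomy. Beside the Y-linked genes, Lipn, Il24, the linker histone Hist1h1d and the predicted gene Gm38495 measured under 0.1 FPKM in both dKO sham libraries and at least 2 FPKM in both dKO SNI libraries, and Hist1h1d measured 0.0978 and 0 FPKM after sham surgery and 3.38 and 2.32 FPKM after axotomy (1.86 ± 0.23, adjusted p = 3.16e-04). No tested gene measured under 0.1 FPKM in both dKO SNI libraries and at least 2 FPKM in both dKO sham libraries.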

How the data were processed

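Gene expression in L4 and L5 ganglia was measured in 8 RNA sequencing libraries, 2 in each of 4 groups, grouped by their titles. The authors deposited 1 table of FPKM values per gene symbol. Per the submitters' processing notes, the tools were edgeR, StringTie 1.3.0 and HISAT2 2.0.4 and the builds GRCm38.p4 and mm10; no annotation or strand setting is stated in the labels or the file, so antisense and overlapping genes cannot be told apart. Whole reads could not be recovered: over 28 pairs of libraries the most common ratio of values under 0.1 FPKM held 1.95 to 6.52% of genes, so depth is unknown and no count test or counting interval was used. FPKM is relative to the library, so a large gain of some genes lowers the others.

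Genes with at least 1 FPKM in 2 or more libraries were tested on log2(FPKM + 1), a scale that understates changes of low genes, with limma 3.58.1 in R 4.3.3. All 8 libraries entered 1 fit with a mean for each group, which leaves 4 residual degrees of freedom, with a variance trend and Benjamini-Hochberg adjustment over 12884 genes, with a threshold of 0.05. With 2 libraries a side, the smallest exact two-sided permutation p is 0.333. In simulated data of 12884 genes the dKO comparison recovered 92% of 100 genes changed by 1 log2 unit. It recovered 100% of 100 changed by 2 and called 14 of 12684 unchanged genes. The noise was normal and independent, with the spread that the fit to these data gave each gene. Genes to be changed were drawn from those with a mean log2(FPKM + 1) above 1, so recovery of lower genes was not tested. Recovery with as large a share of changed genes as the 48.4% called in dKO ganglia was not tested.

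Lists were described by counts and medians, without a test. Named genes were the targets, sex-linked genes, the 15 largest rises and falls without overlap, the 10 largest in FPKM, the 4 smallest p per list with members called against the list, the 10 smallest p of the genotype difference each way, opposite calls, and genes silent in 1 group. Predicted genes were left out of the ranked sets, and some genes that the rule names are not reported here. Jun, Gap43, Irf7, Myh14 and Gm38495 and members named as examples beyond the 4 per list were chosen after their values were seen. The members and lists were chosen with earlier results of these data known. Alternatives were a pseudocount of 0.1, no filter, a mean of 5 FPKM, median centring, quantile normalization, a common total, dKO libraries only, robust estimation, a replicate block and leaving out each library.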

Additional observations from a re-analysis of the deposited data

Results flagged for a closer look

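The dKO and WT responses to axotomy differed by limma's test of the difference for 7 genes. The Y-linked genes had the largest values, at 7.63 for Eif2s3y, 7.06 for Ddx3y, 4.27 for Uty and 3.68 for Kdm5d on the log2(FPKM + 1) scale, since they were present in WT sham and dKO SNI and near 0 in the other groups. The melanin synthesis gene Tyrp1 had a difference of -3.17. The protease gene Asprv1 had a difference of 1.4, and the predicted gene Gm38495 had a difference of 2.55. Each rests on 2 libraries per group, and sex cannot be told apart from this contrast.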

How the results depend on the processing

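The direction counts of the dKO response stayed within 1.5 times of 6236 called, 3069 higher and 3167 lower under a pseudocount of 0.1, no filter, median centring, quantile normalization, a common total, dKO libraries only, robust estimation and the replicate block. With a mean of at least 5 FPKM, where 7630 genes were tested, 3880 were called, 1565 of them higher. Leaving out each library gave 3887 to 6200 called, 1962 to 3078 higher and 1925 to 3122 lower, the lowest all without dKO SNI 2. The 7 genes called for the difference between the responses became 3 with the mean of 5 FPKM, 11 with a common total, 12 with the replicate block, and 5 to 20 on leaving out a library, with 20 without WT sham 1, 15 without dKO SNI 1 and 11 without WT SNI 2. Jun, not called in dKO, had a change of -0.0054 with a common total. Apart from the smaller number of genes tested or libraries used, the cause was not tested.

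The replicate block, which treats equal numbers as pairs, called 6067 genes, 3014 higher and 3053 lower. Deviations of same-numbered libraries correlated at -0.188 to 0.254 over the 6 pairs of groups, so the numbers were not shown to pair libraries. With 2 libraries per group the spread is estimated from few values, and read depth is unknown, so how far depth limits low genes was not tested.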
